A study of Mus musculus with 10 samples.

Results

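The genes described here carry glucose into the cell and break it down. They are the protein-coding genes of the deposited table whose symbol is that of an *Slc2a* or *Slc5a* family member, together with 25 enzyme symbols of glycolysis, of the fate of pyruvate and of glycogen storage. The rule used names only and no measured value. It found 48 of the 29268 genes of the table, of which 17697 are protein-coding. They are 12 *Slc2a* genes, 10 *Slc5a* genes and 26 enzyme entries, since *Aldoa* stands under 2 gene identifiers. RNA of the uterus was sequenced from 5 HSD17B1TG mice and 5 wild-type (WT) mice, all females aged 4 months and each with its own library. HSD17B1TG mice are FVB/N animals that carry a human *HSD17B1* cDNA, which encodes an enzyme that makes estradiol from estrone. The promoter, that of chicken beta-actin with a CMV enhancer, is active in all tissues and not only in the uterus. WT mice lack the transgene. HSD17B1TG females do not cycle, and for the histology of the study WT uteri were taken at random phases of the cycle, so genotype and cycle phase cannot be told apart here.

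Glucose crosses membranes by facilitated diffusion through the Slc2a (GLUT) proteins, while several Slc5a (SGLT) proteins couple its uptake to sodium. Hexokinase traps it as glucose-6-phosphate, phosphofructokinase commits it to glycolysis, and the later enzymes yield pyruvate, which lactate dehydrogenase turns into lactate and pyruvate dehydrogenase oxidises unless a Pdk kinase blocks it. Many of these steps exist as isozymes of separate genes that differ between tissues. In the uterus, estrogen is known to raise glucose uptake, and glycogen stored in the epithelium and glucose taken up by decidual stroma serve the early embryo. Not every Slc5a protein carries glucose, since the family also holds carriers of iodide, choline, myo-inositol, vitamins and short-chain acids.

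Each library held 14817228 to 23271988 counts, and a count of 3 in the shallowest library equals 0.202 CPM, the count scaled to the library total, a limit that covers counting error only. Levels are given as deposited FPKM, fragments scaled to gene length and to the size factor of each library. Mouse *Hsd17b1* itself lay at 0.754 to 1.32 FPKM in HSD17B1TG and 0.456 to 1.42 in WT, and the human cDNA was not analysed here, so the genotype labels were not checked by the transgene. All 15 epithelial, 12 stromal and 12 smooth muscle markers were above 0 in every mouse. The libraries differed in these markers within groups as well as between them. Mitochondrial genes took 5.74%, 1.94%, 2.49%, 6.87% and 7.57% of the counts in TG1 to TG5 and 2.58% to 3.37% in WT, and the part of this share in the results was not tested. The summed FPKM of the smooth muscle markers was 7709 in HSD17B1TG mouse 1 (TG1) and 6019 in WT mouse 4 (WT4), and between 452 and 3262 in the other mice. Epithelial markers summed to 1104 in TG1 and to 2768 to 4733 in TG2 to TG5, and to 2214 in WT4 and 631 to 1359 in the other WT mice. In whole tissue, fewer cells of a type and less RNA per cell cannot be told apart.

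Of the 48 genes, 42 had enough counts to be tested across the whole table with edgeR's quasi-likelihood test. *Aldoc* rose and *Slc2a3* fell in the HSD17B1TG uterus by the thresholds of the study, which ask for an adjusted p under 0.05, at least 1 group above 1 FPKM on average and a change of more than 2-fold. Over all 16993 genes tested, 2.16% were called up and 2.08% down, so 1 and 1 of 42 is close to the rate of any gene. An unadjusted p under 0.05 was reached by 12 genes in the upward and 4 in the downward direction, 38.1% of the 42 against 26.1% of all genes (14.7% up and 11.4% down). By adjusted p alone the same 2 genes passed, against 3.34% of all genes up and 2.81% down. In 6 genes the adjusted p lay between 0.05 and 0.1. DESeq2 on the same counts called 5 of the 42 up and 2 down, against 5.44% and 3.87% of all genes, and voom with quality weights called 7 up and 1 down, *Ldhb*, against 6.37% and 3.91%. limma called *Aldoc*, *Slc5a1* and *Slc5a9* up and 0 down on both FPKM scales, against 2.45% and 1.34% of all genes on log2(FPKM + 1) and 2.9% and 1.88% on log2(FPKM + 0.1). With no filter on low counts edgeR called 0 up and *Slc2a3* and *Slc5a11* down, against 0.998% and 1.19%. In edgeR the log2 fold change was above 0 in 27 of 42 genes, against 50.2% of all genes, and below 0 in the other 15, against 49.8%. Its median was 0.086 against 0.0021 over all genes tested. The median log2 fold change was -0.37 over the 10 *Slc2a* genes tested, 1.40 over the 6 *Slc5a* genes and 0.10 over the 26 enzyme entries, and 19 of these 26 lay above 0. The *Slc5a* median rests on the filter. With no filter on low counts it was -0.21 over all 10 *Slc5a* genes, and the medians were -0.41 over all 12 *Slc2a* genes and 0.066 over the same enzyme entries, with 15 enzyme entries and 24 of all 48 genes above 0. The plot of fold changes in pathway order shows how few of them stand far from 0.

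**Figure D1:**
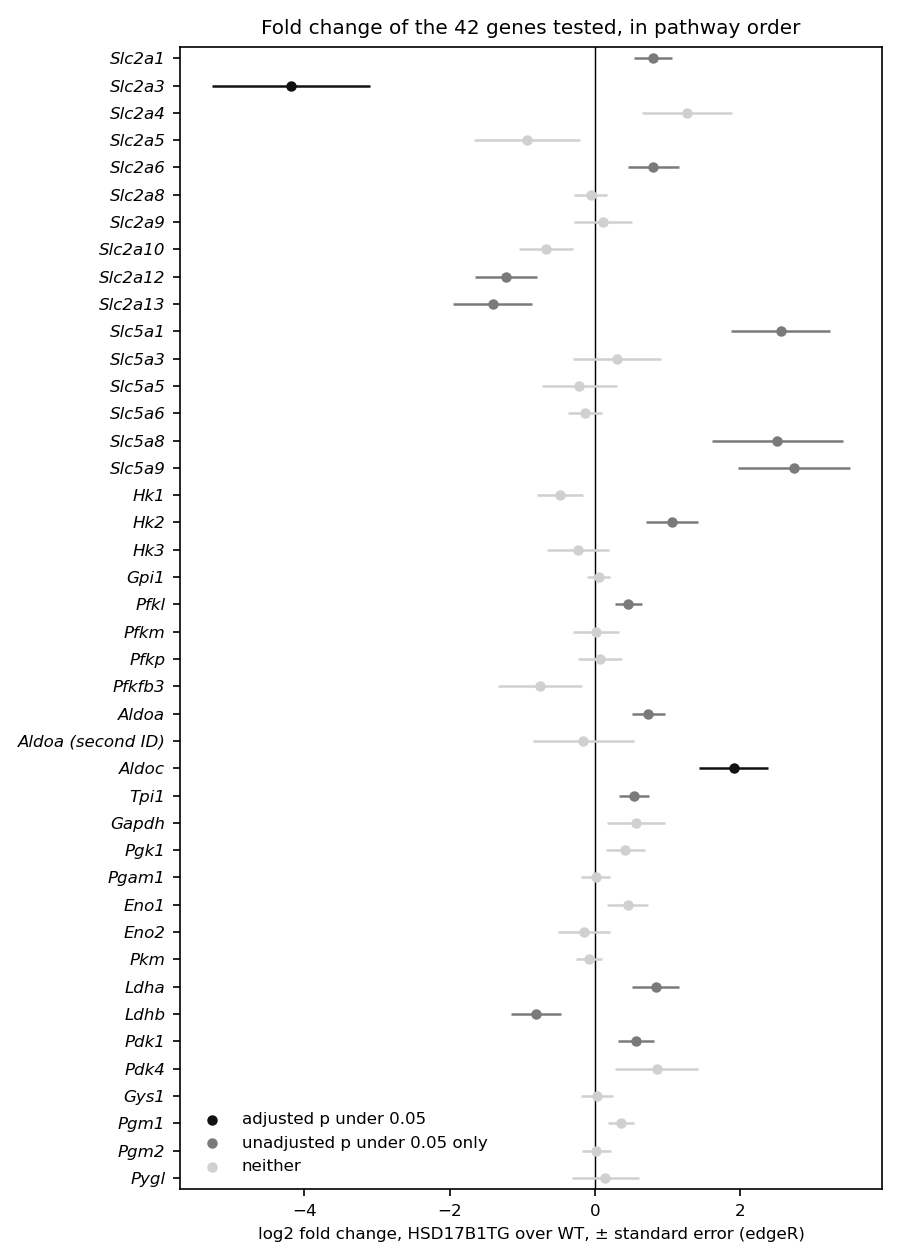
Log2 fold change of HSD17B1TG over WT (x axis, edgeR, 5 mice per group) for each of the 42 genes tested, in the order of the pathway, with its standard error as a horizontal line. *Slc2a3* at -4.18 and *Aldoc* at 1.91 (black) had an adjusted p under 0.05, *Slc5a1*, *Slc5a8* and *Slc5a9* lie between 2.51 and 2.74, and most enzymes lie within 1 of 0.

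The highest levels were those of enzymes from the aldolase step onwards, though not of every such enzyme. Over all 10 mice the mean was 216 FPKM for *Aldoa*, 189 for *Ldha*, 142 for *Tpi1*, 94.3 for *Pkm*, 83.0 for *Ldhb* and 82.0 for *Pgk1*. Entry and commitment steps lay far lower, with 16.4 FPKM for *Slc2a1*, 10.5 for *Hk2*, 8.85 for *Hk1* and 11.9 for *Pfkl*. The summed FPKM of the 26 enzyme entries was 1053 to 1474 in HSD17B1TG and 774 to 1244 in WT. WT4 held the 1244, and the other WT mice ended at 910, below every HSD17B1TG mouse. *Gapdh* was the exception among the abundant steps, with 2.95 ± 1.15 FPKM (SD, n = 5) in WT and 4.37 ± 2.10 in HSD17B1TG. Transcripts of 92 other genes, 88 of them pseudogenes, matched a *Gapdh* transcript over at least 300 bases with 95% identity or more, and 70 of these genes stand in the table. They held 29996 counts over the 10 mice against 2871 on *Gapdh* itself, which is 8.74% of the total, and *Gm13394* alone held 27441. The level and the change of *Gapdh* are therefore uncertain. Counted together, *Gapdh* and these copies reached 196 ± 58.1 CPM of the TMM-scaled library (SD, n = 5) in HSD17B1TG against 153 ± 45.6 in WT, with a two-sided exact permutation p of 0.214.

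**Figure D2:**
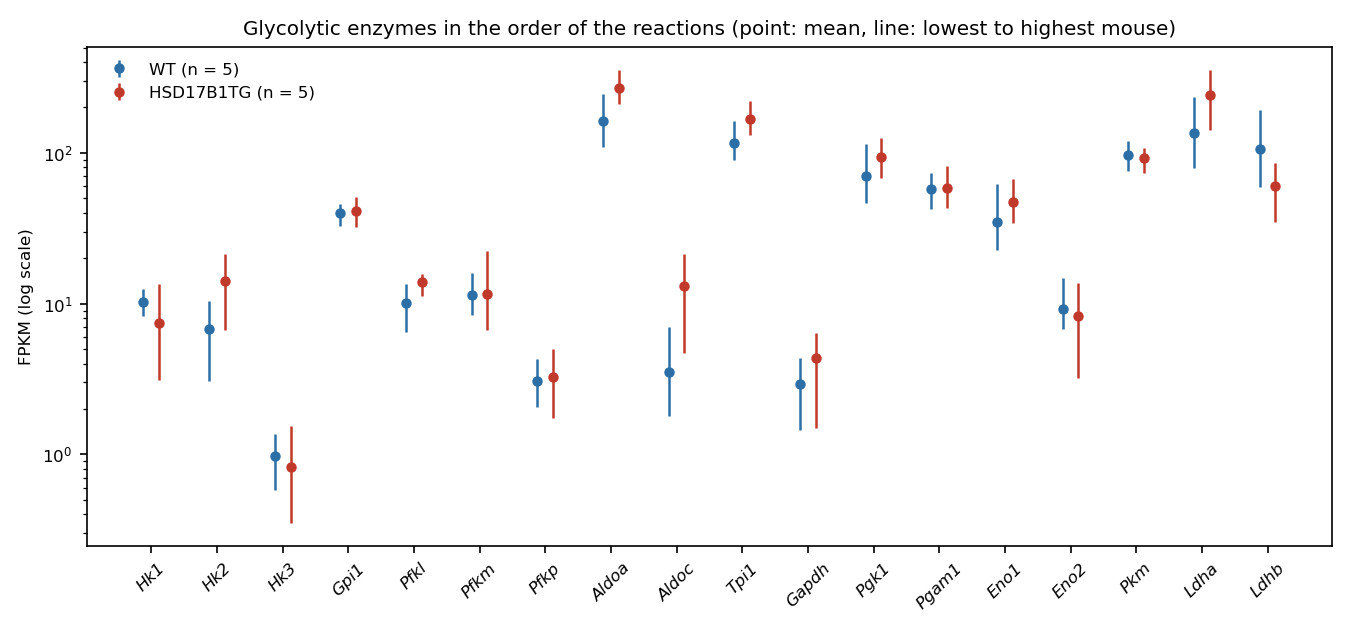
FPKM on a log scale (y axis) of the glycolytic enzymes in the order of their reactions, with the mean of 5 mice as a point and a line from the lowest to the highest mouse, for WT (blue) and HSD17B1TG (red). The ranges of both groups overlap at every enzyme, and *Gapdh* lies at 1.46 to 6.42 FPKM far below its neighbours *Tpi1* and *Pgk1*.

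Among the facilitative transporters, *Slc2a1* (ENSMUSG00000028645, GRCm38 chromosome 4 from 119108711 to 119137983) had the highest mean over all 10 mice, though in WT its mean of 11.9 FPKM was below the 18.9 of *Slc2a3*. It encodes GLUT1, the carrier of basal glucose uptake in most cells. Its level was 17.6, 29.7, 23.0, 14.7 and 18.9 FPKM in TG1 to TG5 and 13.2, 7.42, 10.4, 19.3 and 9.36 in WT1 to WT5. Only WT4 reached into the HSD17B1TG range. edgeR gave a log2 fold change of 0.80 with a standard error (SE) of 0.27. The adjusted p in edgeR was 0.0907 and the two-sided exact permutation p was 0.0317. Without WT4 the adjusted p in edgeR was 0.0202, and without 1 other mouse it reached up to 0.201.

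*Slc2a3* (ENSMUSG00000003153, chromosome 6 from 122727809 to 122801640) encodes GLUT3, a high-affinity carrier best known from neurons, leucocytes and the placenta. Its level was 1.47, 1.01, 0.558, 1.498 and 0.709 FPKM in TG1 to TG5 and 2.85, 5.24, 76.7, 1.04 and 8.67 in WT1 to WT5. The HSD17B1TG mice were uniformly low, WT3 stood far above every other mouse, and WT4 lay among the HSD17B1TG values. This gave a log2 fold change of -4.18 (SE 1.09, adjusted p = 0.0486 in edgeR), with an exact permutation p of 0.0238. Its size rested on WT3. Without WT3 it was -2.12 with an adjusted p of 0.0813 in edgeR. The call was also lost without TG1, TG2, TG3, TG4, TG5, WT1, WT2 or WT5, with adjusted p between 0.0508 and 0.112 and log2 fold changes between -4.48 and -4.03, and it held without WT4 with 0.0160. Under voom and under limma on log2(FPKM + 1) and log2(FPKM + 0.1) the log2 fold change was -2.86, -2.02 and -2.60, with adjusted p between 0.102 and 0.134. Without both WT3 and WT4 the log2 fold change was -2.42 and the adjusted p 0.0191.

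The natural killer and cytotoxic lymphocyte markers moved the same way as *Slc2a3*. Their summed FPKM was 2.92 to 12.9 in HSD17B1TG and 17.6 to 135 in WT, with 76.8, 28.2, 135, 17.6 and 66.9 in WT1 to WT5. WT3 was highest and WT4 lowest of the WT mice in both measures, while WT1 was second highest in these markers and second lowest in *Slc2a3*. Of the 12 markers, 6 were called down, 6 were at 0 in some mouse and *Gzmc* was at 0 in 4 of the 5 HSD17B1TG mice. Stromal markers summed to 709 to 2565 in HSD17B1TG and to 2126 to 2710 in WT, and 5 of the 12 were called down. Markers of all leucocytes summed to 73.8 to 128 FPKM in HSD17B1TG and 57.5 to 110 in WT. Of these 10, 3 were called up and 7 had a log2 fold change below 0. Of the 12 macrophage markers, 1 was called up and 9 lay above 0. Endothelial markers summed to 48.9 to 183 in HSD17B1TG and 102 to 221 in WT, and 10 of 12 lay below 0. Their WT sum was highest in WT3, second highest in WT5 and lowest in WT4, as was *Slc2a3*. The part of any of these cell types in the value of *Slc2a3* was not tested.

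Further *Slc2a* genes are named here after their values were seen. *Slc2a12*, which encodes GLUT12, had 1.94 to 8.24 FPKM in HSD17B1TG and 7.44 to 20.7 in WT, with the 20.7 in WT3. Its log2 fold change was -1.22 (SE 0.42, adjusted p = 0.0991 in edgeR). *Tbpl1* overlaps *Slc2a12* on the opposite strand and shares near-identical transcript sequence with it. *Tbpl1* held 8074 counts against 6349 on *Slc2a12*, so the level of *Slc2a12* is uncertain. *Slc2a13*, a proton-coupled myo-inositol carrier, had a log2 fold change of -1.41 (adjusted p = 0.132 in edgeR) at levels under 1 FPKM. *Slc2a4* encodes GLUT4, the insulin-dependent carrier of muscle and fat. It had 26.2, 11.8, 8.73, 12.8 and 4.86 FPKM in TG1 to TG5 and 4.14, 2.10, 1.66, 15.1 and 3.73 in WT1 to WT5. WT4 again stood with the HSD17B1TG mice, and the highest levels of each group were in TG1 and WT4, the mice with the highest sum of smooth muscle markers. The part of smooth muscle in this value was not tested. The log2 fold change of *Slc2a4* was 1.27 (SE 0.62, adjusted p = 0.226 in edgeR). Without WT4 it was 2.14 with an adjusted p of 0.0200, and without 1 other mouse it went down to 0.84 with an adjusted p up to 0.399. *Slc2a5*, the fructose carrier, *Slc2a8*, *Slc2a9* and *Slc2a10* had adjusted p between 0.272 and 0.894, and *Slc2a6* had a log2 fold change of 0.80 (adjusted p = 0.172 in edgeR). *Slc2a2* and *Slc2a7* had 2 and 9 counts over all 10 mice and were not tested.

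The *Slc5a* family held the largest upward differences. *Slc5a9* (ENSMUSG00000028544, chromosome 4 from 111875375 to 111902918) encodes SGLT4, a sodium-coupled carrier of mannose and related sugars. It had 7.12, 29.3, 13.3, 13.4 and 21.7 FPKM in TG1 to TG5 and 6.63, 1.37, 0.179, 3.69 and 0.838 in WT1 to WT5. Every HSD17B1TG mouse lay above every WT mouse, but TG1 and WT1 nearly met. It was the only one of the 42 genes with groups that did not overlap, against 4.04% of all genes in the upward and 2.65% in the downward direction. The mean was 6.67 times that of WT and the log2 fold change 2.74 (SE 0.77). Its adjusted p in edgeR was 0.0580, 0.0413 without TG1 and up to 0.136 without 1 other mouse, while the exact permutation p was 0.00794, the smallest that 5 mice against 5 can give.

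*Slc5a1* (ENSMUSG00000011034, chromosome 5 from 33104219 to 33162870) encodes SGLT1, the sodium-coupled glucose carrier of the intestine, and is named after its values were seen. It had 3.86, 11.6, 7.25, 5.15 and 15.5 FPKM in TG1 to TG5 and 1.30, 0.757, 0.212, 4.14 and 0.940 in WT1 to WT5. Only TG1 and WT4 overlapped. For *Slc5a1* the log2 fold change was 2.56 (SE 0.68, adjusted p = 0.0511 in edgeR). Without WT4 it was 3.42 with an adjusted p of 0.00759, and without 1 other mouse the adjusted p reached up to 0.124. *Slc5a8*, a carrier of lactate, pyruvate and short-chain fatty acids, had 0.543 to 5.05 FPKM in HSD17B1TG and 0.00987 to 1.11 in WT (log2 fold change 2.51, SE 0.90, adjusted p = 0.109 in edgeR). These genes were lowest among the HSD17B1TG mice in TG1, the mouse with the lowest sum of epithelial markers in its group. In WT the epithelial sum was highest in WT4 and second highest in WT1, and so was *Slc5a1*, while *Slc5a9* was highest in WT1 and second highest in WT4 and *Slc5a8* was highest in WT5, the mouse with the lowest epithelial sum. All 15 epithelial markers had a log2 fold change above 0 with a median of 1.24, and 1 of them, *Spint2*, was called up. The part of the epithelium in the *Slc5a* values was not tested.

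*Slc5a11*, a myo-inositol carrier, was left out of the test for its low counts. It had 0 counts in TG1 to TG4 and 9 in TG5, and 29, 117, 586, 7 and 49 in WT1 to WT5. WT3 stood apart here as it did for *Slc2a3*, and WT4 and TG5 overlapped. With no filter on low counts its log2 fold change was -6.37 (adjusted p = 0.0436 in edgeR), a value that depends on the prior count at levels near 0. *Slc5a3*, the osmotically regulated myo-inositol carrier, *Slc5a5*, the iodide carrier of the thyroid, and *Slc5a6*, a vitamin carrier, had adjusted p between 0.752 and 0.828. *Slc5a2*, the renal SGLT2, *Slc5a7*, a choline carrier, and *Slc5a10* had 3, 19 and 14 counts over all 10 mice.

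**Figure D3:**
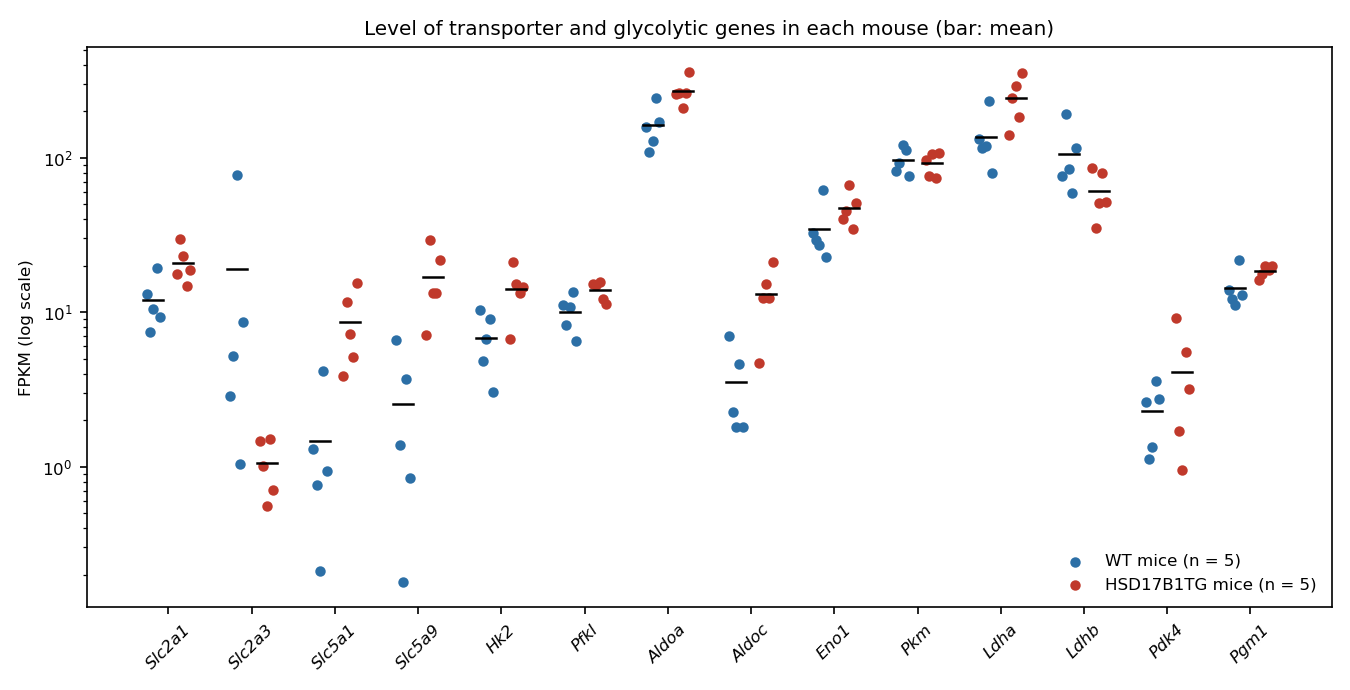
FPKM on a log scale (y axis) of 14 genes in each WT mouse (blue) and HSD17B1TG mouse (red), with the group mean as a bar. *Slc5a9* is the only gene shown whose groups do not overlap, and the WT mean of *Slc2a3* is set by 1 mouse at 76.7 FPKM.

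At the first step inside the cell, *Hk2* (ENSMUSG00000000628, chromosome 6 from 82725025 to 82774454) had the highest mean over all 10 mice, but not in WT, where *Hk1* had 10.3 FPKM and *Hk2* 6.78. It encodes the hexokinase of muscle, fat and growing cells, while *Hk1* encodes the isozyme found in nearly all cells. *Hk2* had 6.71, 21.2, 15.1, 13.4 and 14.5 FPKM in TG1 to TG5 and 10.3, 4.81, 6.66, 9.06 and 3.05 in WT1 to WT5. TG2 to TG5 lay above every WT mouse, and TG1 lay within the WT range. The log2 fold change was 1.06 (SE 0.36, adjusted p = 0.0915 in edgeR), with an exact permutation p of 0.0317. Without TG1 the adjusted p in edgeR was 0.0375, and without 1 other mouse it reached up to 0.204. TG1 was lowest of its group both in *Hk2* and in the sum of epithelial markers. WT1 and WT4 were the upper pair of WT mice in both. In HSD17B1TG, *Hk2* was highest in TG2 and the epithelial sum in TG5. The part of the epithelium in the value of *Hk2* was not tested. *Hk1* had 3.13 to 13.5 FPKM in HSD17B1TG and 8.22 to 12.6 in WT, with a log2 fold change of -0.49 (adjusted p = 0.357 in edgeR). *Hk3*, a hexokinase of leucocytes, had a mean of 0.899 FPKM over all mice.

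A share of 1 isozyme within its step does not depend on how the libraries are scaled. The share of *Hk2* in the summed FPKM of *Hk1*, *Hk2* and *Hk3* was 63.2% ± 19.4 (SD, n = 5) in HSD17B1TG and 36.3% ± 8.93 in WT. In TG2 to TG5 it was 63.3% to 80.6% and in TG1 30.8%, while no WT mouse exceeded 43.3%. The share of *Ldha* in the sum of *Ldha* and *Ldhb* was 78.4% ± 11.7 in HSD17B1TG and 56.0% ± 17.3 in WT, with WT4 at 79.8% and the other WT mice at or below 63.6%. *Slc2a1* made up 42.3% ± 11.5 of the summed *Slc2a* FPKM in HSD17B1TG and 23.7% ± 10.3 in WT. WT3 was lowest at 8.66%, with *Slc2a3* at 76.7 of its summed 121 FPKM. The *Slc2a* sum is not a single step in the strict sense, since it also holds carriers of fructose and of myo-inositol. *Aldoa* made up 95.4% ± 1.84 of both aldolases in HSD17B1TG and 97.9% ± 1.25 in WT. The exact permutation tests, all two-sided, gave p = 0.0397 for *Hk2*, *Hk1* and *Slc2a1*, 0.0476 for *Ldha* and 0.0317 for *Aldoa*. After Benjamini-Hochberg adjustment over the 11 shares tested by permutation, all 5 had an adjusted p of 0.105, and the other 6 shares had unadjusted p between 0.127 and 0.929. No share passed the threshold with all 10 mice. Without TG1 the shares of *Hk1* and *Hk2* had an adjusted permutation p of 0.0437. These shares nearly mirror each other, since *Hk3* is low, and both were counted among the 11. They are therefore not separate results, here or among the 5 above. The adjusted p with only 1 of them in the family was not computed.

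**Figure D4:**
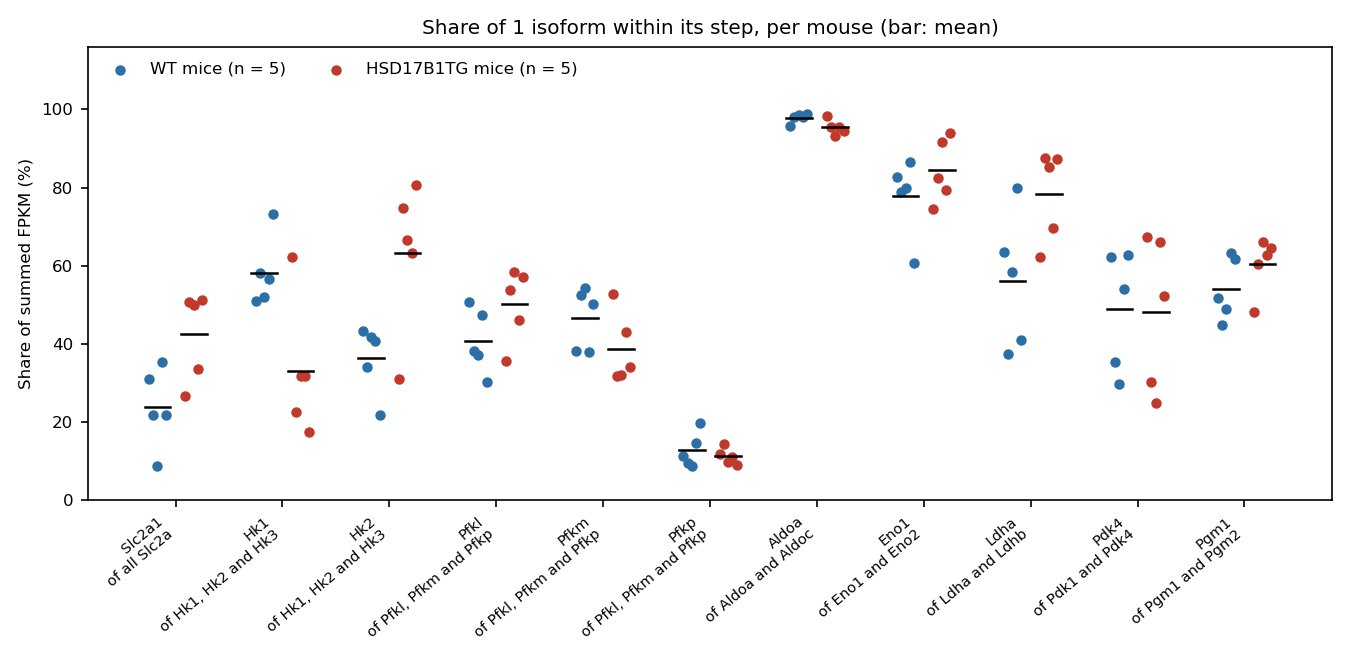
Share of 1 isozyme in the summed FPKM of its step in percent (y axis) for the 11 shares tested, with 1 point per mouse, WT in blue, HSD17B1TG in red and the group mean as a bar. The share of *Hk2* lies above every WT mouse in 4 of 5 HSD17B1TG mice, and the share of *Ldha* overlaps between the groups through WT4 at 79.8% and WT1 at 63.6%.

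Phosphofructokinase is the committing step, and *Pfkl*, the liver-type subunit, had the highest mean of its 3 genes over all 10 mice, although in WT *Pfkm* had 11.4 FPKM and *Pfkl* 10.02. It had 15.2, 15.0, 15.6, 12.1 and 11.2 FPKM in TG1 to TG5 and 11.1, 8.30, 10.8, 13.4 and 6.503 in WT1 to WT5. The groups met only through WT4, which lay above TG4 and TG5. In edgeR the log2 fold change was 0.46 (SE 0.19, adjusted p = 0.157 in edgeR; exact permutation p = 0.0397). *Pfkm* and *Pfkp*, the muscle and platelet subunits, had log2 fold changes of 0.0086 and 0.067 with adjusted p of 0.990 and 0.911. *Pitrm1* overlaps *Pfkp* on the opposite strand with near-identical transcript sequence. It held 9766 counts against 8016 on *Pfkp*, so the level of *Pfkp* is uncertain. *Pfkfb3* makes fructose-2,6-bisphosphate, the activator of phosphofructokinase, and is named after its values were seen. It had 4.68 to 14.6 FPKM in HSD17B1TG and 3.65 to 14.5 in WT outside WT3, which had 36.2 (log2 fold change -0.76, SE 0.58, adjusted p = 0.439 in edgeR). This difference lay between -1.07 and -0.013 without 1 mouse.

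*Aldoc* (ENSMUSG00000017390, chromosome 11 from 78322968 to 78327781) was the only enzyme called. It encodes aldolase C, the isozyme best known from brain. It had 4.70, 12.3, 15.2, 12.4 and 21.2 FPKM in TG1 to TG5 and 7.02, 2.24, 1.81, 4.64 and 1.81 in WT1 to WT5. In the HSD17B1TG group, 4 of 5 mice lay above every WT mouse, and TG1 lay below WT1. Epithelial markers summed to 1104, 3242, 3387, 2768 and 4733 FPKM in TG1 to TG5, so that TG1 was lowest and TG5 highest of its group in both measures, and WT1 and WT4 were the upper pair of WT mice in both. The part of the epithelium in the value of *Aldoc* was not tested. The mean rose 3.76-fold, with a log2 fold change of 1.91 (SE 0.47, adjusted p = 0.0437 in edgeR) and an exact permutation p of 0.0159. The direction held in each fit that left out 1 mouse, with log2 fold changes from 1.67 to 2.30. The call held without TG1, WT1 or WT4, and it was lost without TG2, TG3, TG4, TG5, WT2, WT3 or WT5, with adjusted p between 0.0572 and 0.107. *Aldoc* supplied only a small part of aldolase mRNA in both groups. *Aldoa* (ENSMUSG00000030695, chromosome 7 from 126795234 to 126800751), the isozyme of muscle and most other cells, had 258, 262, 211, 264 and 356 FPKM in TG1 to TG5 and 158, 110, 128, 245 and 170 in WT1 to WT5. Only WT4 reached the HSD17B1TG range. The log2 fold change of *Aldoa* was 0.74 (SE 0.23, adjusted p = 0.0777 in edgeR), its exact permutation p was 0.0159, and its adjusted p in edgeR was 0.0189 without WT4 and up to 0.188 without 1 other mouse. The second *Aldoa* entry (ENSMUSG00000114515) lay next to it with 196 counts in all (adjusted p = 0.909 in edgeR).

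No gene of the reactions from triosephosphate to pyruvate was called. *Tpi1*, triosephosphate isomerase, had 131 to 222 FPKM in HSD17B1TG and 90.0 to 163 in WT (log2 fold change 0.53, adjusted p = 0.133 in edgeR, 0.0425 without WT4 and up to 0.278 without 1 other mouse). *Eno1* (ENSMUSG00000063524, chromosome 4 from 150236721 to 150248879), the enolase of most cells, had 39.9, 45.4, 66.7, 34.4 and 50.9 FPKM in TG1 to TG5 and 32.4, 29.1, 27.1, 62.2 and 22.7 in WT1 to WT5. WT4 was above all but 1 HSD17B1TG mouse, and the other WT mice lay below them all. This gave a log2 fold change of 0.45 (SE 0.28, adjusted p = 0.337 in edgeR; exact permutation p = 0.127), and without WT4 it was 0.76 with an adjusted p of 0.0347. Leaving out 1 other mouse gave adjusted p up to 0.563. Near-identical copies, among them *Eno1b*, held 27906 counts against 41276 on *Eno1*, so its level is uncertain. With these copies the exact permutation p was 0.135.

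*Pkm* (ENSMUSG00000032294, chromosome 9 from 59656368 to 59679375) encodes the pyruvate kinase of most tissues outside liver. It had 96.3, 76.5, 105, 73.4 and 108 FPKM in TG1 to TG5 and 81.5, 93.0, 121, 113 and 76.3 in WT1 to WT5. The ranges lay over each other. For *Pkm* the log2 fold change was -0.084 (SE 0.18, adjusted p = 0.811 in edgeR; exact permutation p = 0.667). *Gpi1*, *Pgk1*, *Pgam1* and *Eno2* had adjusted p between 0.359 and 0.982.

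Pyruvate leaves glycolysis through lactate dehydrogenase or the mitochondrion. *Ldha* (ENSMUSG00000063229, chromosome 7 from 46841475 to 46855627), which encodes the muscle-type subunit, had 141, 243, 292, 183 and 354 FPKM in TG1 to TG5 and 132, 115.4, 119, 234 and 79.7 in WT1 to WT5. All HSD17B1TG mice lay above the WT mice other than WT4. The log2 fold change was 0.83 (SE 0.32, adjusted p = 0.1301 in edgeR; exact permutation p = 0.0476), and without WT4 it was 1.11 with an adjusted p of 0.0311. Leaving out 1 other mouse gave log2 fold changes down to 0.66 and adjusted p up to 0.264. The HSD17B1TG mice ranked in *Ldha* as they did in the sum of epithelial markers. In WT both were highest in WT4, second highest in WT1 and lowest in WT5, while WT2 and WT3 changed places. The part of the epithelium in the value of *Ldha* was not tested. *Ldhb*, the heart-type subunit, is named after its values were seen and pointed the other way. It had 85.8, 34.8, 50.8, 79.7 and 51.3 FPKM in TG1 to TG5 and 75.7, 193, 85.1, 59.0 and 114.8 in WT1 to WT5. WT4 was the lowest WT mouse, and WT2 stood above the rest. For *Ldhb* the log2 fold change was -0.81 (SE 0.35, adjusted p = 0.167 in edgeR).

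Pyruvate dehydrogenase kinases hold pyruvate back from oxidation. *Pdk4* (ENSMUSG00000019577, chromosome 6 from 5483351 to 5496309), the isoform induced by fasting, had 9.15, 1.70, 0.954, 5.55 and 3.18 FPKM in TG1 to TG5 and 2.63, 1.12, 1.34, 3.56 and 2.74 in WT1 to WT5. TG1 was highest and TG3 lowest of all mice, so that the HSD17B1TG group spanned the WT group. In edgeR the log2 fold change was 0.85 (SE 0.57, adjusted p = 0.375 in edgeR; exact permutation p = 0.381). *Pdk1*, a target of hypoxia signalling, had 2.86 to 4.43 FPKM in HSD17B1TG and 1.59 to 3.18 in WT (log2 fold change 0.57, adjusted p = 0.174 in edgeR).

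Among the glycogen genes of the rule, *Pgm1* (ENSMUSG00000029171, chromosome 5 from 64092950 to 64128351) was highest. Glycogen genes outside the rule lay above it, such as *Pygb* at 46.3 FPKM in HSD17B1TG and 34.3 in WT. By name *Pgm1* is a phosphoglucomutase, but in the mouse naming of the table it corresponds to human *PGM2* and *Pgm2* to human *PGM1*. Its place among the glycogen genes rests on its symbol. *Pgm1* had 16.2, 17.6, 19.8, 18.7 and 19.97 FPKM in TG1 to TG5 and 13.8, 12.1, 11.1, 21.8 and 12.9 in WT1 to WT5. WT4 was the highest of all mice, and every other WT mouse lay below every HSD17B1TG mouse. This gave a log2 fold change of 0.36 (SE 0.18, adjusted p = 0.226 in edgeR; exact permutation p = 0.0556), and without WT4 it was 0.56 with an adjusted p of 0.0172. Leaving out 1 other mouse gave adjusted p up to 0.469. *Pgm2*, *Gys1*, the glycogen synthase of muscle and most tissues, and *Pygl*, the liver-type glycogen phosphorylase, had adjusted p between 0.877 and 0.963.

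WT4 recurred through these results. Of the 12 genes that were higher in HSD17B1TG at an unadjusted p under 0.05, WT4 lay within the HSD17B1TG range for 9 and WT1, WT5, WT2 and WT3 for 3, 2, 1 and 1. WT4 was the highest WT mouse for 6 of the 12. In the HSD17B1TG group, TG1 held the lowest level for 13 of the 42 genes tested and the highest for 17, and TG5 the lowest for 14 and the highest for 11. Without WT4, 5 of the genes were called up (*Aldoc*, *Ldha*, *Slc2a1*, *Slc2a4* and *Slc5a1*), against 5.12% of all genes tested, and *Slc2a3* and *Slc5a11* were called down, against 3.84%. *Slc5a11* entered that fit only because it passed the filter through the 4 remaining WT mice, where it is high. Without TG1, *Aldoc*, *Hk2*, *Slc2a6*, *Slc5a1* and *Slc5a9* were called up, against 4.42%, and *Slc2a12* was called down, against 3.33%. The map of deviations by mouse shows all 10.

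**Figure D5:**
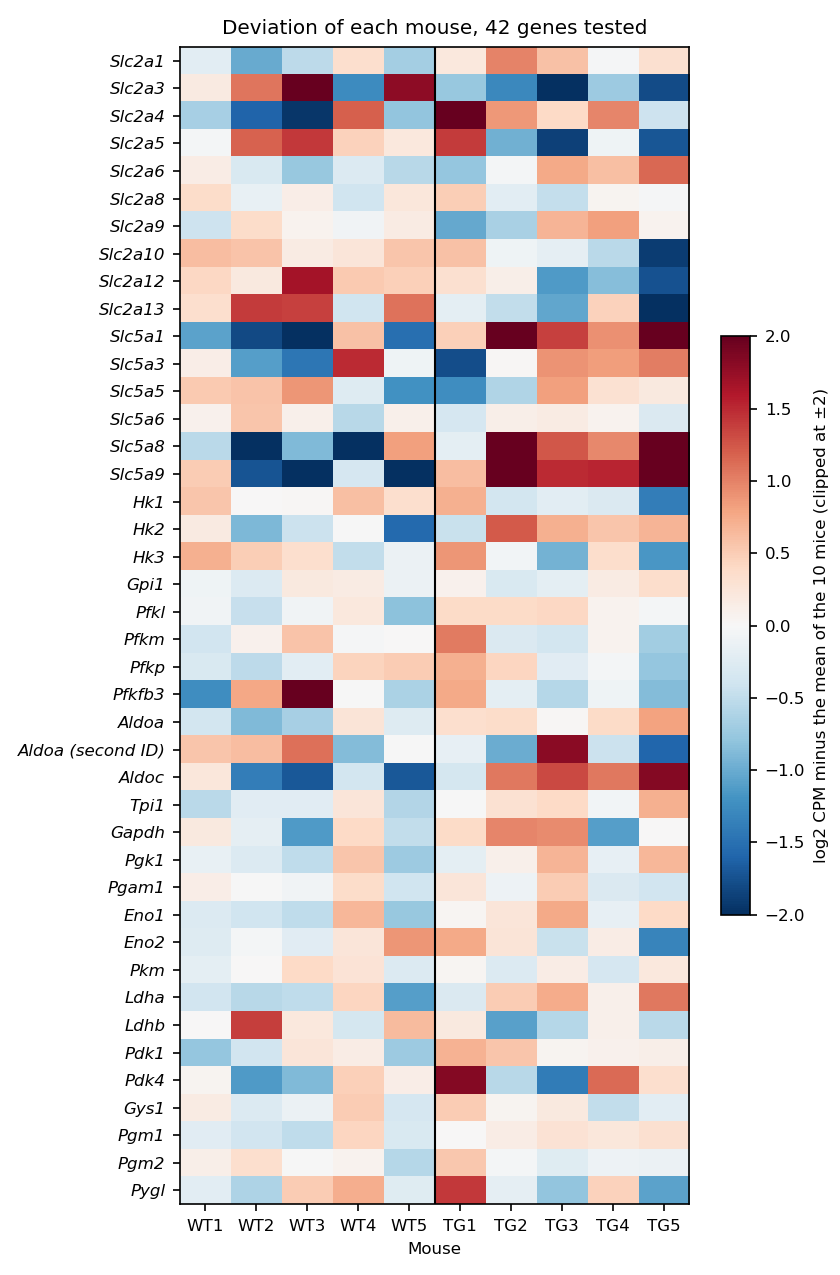
Deviation of each mouse (x axis) from the mean of the 10 mice in log2 CPM, clipped at 2 in each direction, for the 42 genes tested in pathway order (y axis). Red is above and blue below the mean. WT4 is red for most glycolytic enzymes, unlike the other WT mice, TG1 is near or below the mean for *Hk2* and *Aldoc*, unlike the other HSD17B1TG mice, and WT3 is red for *Slc2a3* and *Pfkfb3*.

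The promoters of 41 of the genes were found in RefSeq (GRCm38.p6), and those of *Slc2a3*, *Slc2a4*, *Slc5a9*, *Slc5a2*, *Pgm1*, *Pgm2* and the second *Aldoa* entry were not matched. The 250 bases before each start were searched on both strands for ACGTG and GCGTG, the core of the hypoxia response element, for CACGTG, the E-box, which contains ACGTG, and for the estrogen response element as GGTCANNNTGACC, where N is any base. ACGTG or GCGTG stood in 23 of the 41 windows (56.1%) against 38.6% of 32851 windows of all genes. It stood in 16 of 23 enzyme windows and 7 of 18 transporter windows. Of the 11 genes found that were higher at an unadjusted p under 0.05, 9 held it, as did 1 of the 3 that were lower. *Aldoa* and *Tpi1* were the higher genes without it. Of genes with a log2 fold change near 0, *Pgam1* (0.0097) and *Pfkp* (0.067) held 3 matches each, and *Gpi1* (0.054) and *Gys1* (0.027) held none. CACGTG stood in 3 of 41 windows, against 6.02% of all windows, and the estrogen response element in none, against 0.0639%. Such a match is a description of letters and not of a bound site. The windows of *Aldoc*, *Slc5a1*, *Hk2* and *Ldha* are shown, since they hold from 1 to several matches to the hypoxia response core, whose letters on either strand are in capitals. The single match of *Aldoc* is GCGTG, which stood in 28.2% of all windows. These windows were picked for holding the core, and a link of the matches to the changes was not tested. They lie at chr11:78322823-78323072 on the plus strand (*Aldoc*), chr5:33103969-33104218 on the plus strand (*Slc5a1*), chr6:82774455-82774704 on the minus strand (*Hk2*) and chr7:46845554-46845803 on the plus strand (*Ldha*). The *Ldha* window belongs to a RefSeq start 4329 bases downstream of the start of the gene in the table and so lies inside the gene. For *Slc2a9* and *Pygl* the windows lay 19758 and 3805 bases from that start, and for the others under 700.
Aldoc: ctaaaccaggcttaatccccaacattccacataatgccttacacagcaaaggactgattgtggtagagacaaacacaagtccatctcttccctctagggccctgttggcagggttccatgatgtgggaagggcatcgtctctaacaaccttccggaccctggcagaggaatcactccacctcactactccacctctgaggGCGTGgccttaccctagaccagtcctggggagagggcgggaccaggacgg
Slc5a1: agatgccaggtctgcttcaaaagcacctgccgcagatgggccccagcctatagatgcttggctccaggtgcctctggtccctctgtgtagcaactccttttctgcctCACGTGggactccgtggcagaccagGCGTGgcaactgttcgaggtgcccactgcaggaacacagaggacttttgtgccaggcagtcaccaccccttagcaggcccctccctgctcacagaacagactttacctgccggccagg
Hk2: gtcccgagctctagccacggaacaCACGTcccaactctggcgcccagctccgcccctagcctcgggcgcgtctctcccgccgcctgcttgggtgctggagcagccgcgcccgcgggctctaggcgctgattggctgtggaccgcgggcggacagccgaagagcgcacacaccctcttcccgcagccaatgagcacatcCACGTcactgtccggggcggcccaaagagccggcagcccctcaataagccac
Ldha: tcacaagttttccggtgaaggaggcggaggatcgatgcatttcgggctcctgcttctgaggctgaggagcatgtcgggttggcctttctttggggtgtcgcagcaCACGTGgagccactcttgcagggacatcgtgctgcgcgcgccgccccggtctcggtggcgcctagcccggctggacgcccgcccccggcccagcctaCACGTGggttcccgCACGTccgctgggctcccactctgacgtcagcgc

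The rest of sugar metabolism was read from lists of whole pathways. Of 17 other glycolytic isozymes tested none was called, and *Pfkfb4*, a relative of *Pfkfb3*, had the smallest p, at 4.17 ± 0.433 FPKM (SD, n = 5) in HSD17B1TG against 2.34 ± 0.260 in WT. The log2 fold change of *Pfkfb4* was 0.83 (adjusted p = 0.0219 in edgeR), under the fold change threshold. Every HSD17B1TG mouse, at 3.58 to 4.75 FPKM, lay above every WT mouse, at 1.91 to 2.59. Of 22 genes of glycogen metabolism tested, 1 was called up and 0 down, against 2.16% and 2.08% of all genes. This was *Ppp1r3d*, which targets protein phosphatase 1 to glycogen, with 2.25 ± 0.686 FPKM in HSD17B1TG and 0.928 ± 0.303 in WT (log2 fold change 1.27, adjusted p = 0.0377 in edgeR). Of 16 genes for the transport and oxidation of pyruvate and lactate none was called. *Bsg*, the basigin that brings lactate carriers to the membrane, had 426 ± 121 FPKM in HSD17B1TG and 242 ± 29.5 in WT (log2 fold change 0.81, adjusted p = 0.0443 in edgeR). Of the 16 genes, 11 lay below 0 and 5 above, with a median of -0.12. *Emb* was among those below, with a log2 fold change of -1.22 (adjusted p = 0.0824 in edgeR). In the hexosamine pathway 1 of 8 genes was called down, against 2.08% of all genes, and 0 up. This was *Gfpt2*, a rate-limiting amidotransferase, which fell by 2.16 on the log2 scale from 4.73 ± 2.62 to 1.06 ± 0.617 FPKM (adjusted p = 0.0427 in edgeR). The other way, *Nagk*, an acetylglucosamine kinase, had a log2 fold change of 0.47 (adjusted p = 0.0445 in edgeR), and 6 of the 8 genes lay above 0 with a median of 0.32. None of 6 genes of gluconeogenesis, 11 of the pentose phosphate pathway and 12 of fructose, polyol and galactose metabolism was called, and the smallest adjusted p in these were 0.0824 for *G6pc3*, 0.0865 for *Taldo1* and 0.0767 for *Akr1b8*.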

How the data were processed

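Uterine RNA of 5 HSD17B1TG and 5 WT mice was sequenced with reads of 150 bp from both ends. Per the submitters' notes and the paper's methods, the authors mapped the reads with HISAT2 2.0.5 to the mouse genome (Ensembl annotation of GRCm38). Which program counted them, and with which setting for strand, is not given in the sources used here, so reads where genes overlap on opposite strands may have gone to either gene. The authors deposited 1 table of raw counts per gene and mouse, of the same counts divided by a DESeq2 size factor (signal), and of FPKM, which the authors scaled by that size factor and the gene length. Deposited fold changes and p-values of the authors' own comparison and their lists of enriched terms were not used.

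The genotype of each label set its group. The mice were numbered within a group in accession order, so TG1 or WT4 is a name only. The labels name no litter, batch or day. Titles end in an unexplained number that TG1 and WT4, TG3 and TG4, and WT2 and WT3 share. Each library is 1 mouse. Raw counts of all 10 mice were tested with edgeR 4.0.16 (R 4.3.3) after filterByExpr and TMM normalization, with the quasi-likelihood test of HSD17B1TG against WT and Benjamini-Hochberg adjustment over all 16993 genes tested. Every adjusted p of a gene comes from that fit unless another is named. Calls needed an adjusted p under 0.05, a change of more than 2-fold and more than 1 FPKM on average in 1 of the groups. Levels of single genes were also tested as log2(FPKM + 1) with two-sided exact permutation tests over the 252 assignments of 10 mice to groups of 5. The alternatives were DESeq2 1.42.0, other scalings and filters, voom with quality weights and limma 3.58.1 on log2(FPKM + 1) and log2(FPKM + 0.1), and each mouse left out. The fitting was tested on simulated counts. Near-identical transcripts were sought with BLAST 2.17.0 in GENCODE M21, which places 47 of the 48 genes as the table does.

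The genes, lists and tests were chosen with earlier results of these data known. Of the 42 genes tested, values in every mouse are given for genes with an adjusted p under 0.05, genes whose groups did not overlap, and the gene with the highest mean FPKM of all mice in each of 10 sets (both transporter families, hexokinase, phosphofructokinase, aldolase, enolase, pyruvate kinase, lactate dehydrogenase, pyruvate dehydrogenase kinase and glycogen). Other genes with such values were chosen after these were seen.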

Additional observations from a re-analysis of the deposited data

Results flagged for a closer look

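A mouse far from the others was looked for in each group of 5 mice for each of the 42 genes tested, 84 groups in all, by Dixon's ratio of the gap to the whole range on the scale of log2 CPM, with 0.710 as the limit. Chance alone flags about 5% of such groups, and 2 of the 84 were past the limit. TG1 stood above the other HSD17B1TG mice for *Pgm2*, a phosphoglucomutase, with 17.4 FPKM against 10.2 to 11.5 (ratio 0.744 in log2 CPM). WT3 stood above the other WT mice for *Slc2a12*, the gene of GLUT12, with 20.7 FPKM against 7.44 to 9.54 (ratio 0.774). On FPKM itself, a scale tried after the values were seen, 9 of the 84 groups were past the limit. WT4 was the high mouse in 4 of these (*Eno1*, *Pgm1*, *Slc2a4* and *Slc5a1*), and WT3 in 2 (*Slc2a3* with a ratio of 0.899 and *Slc2a12*).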

How the results depend on the processing

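No paired analysis was possible because the groups share only 1 number in the labels. Each title ends in a number that is not explained, and of these only 10 stands in both groups, for TG1 and WT4. What it marks was not tested. Precision is limited by 5 mice a group. WT4 lay within the HSD17B1TG range for 9 of the 12 genes that were higher at an unadjusted p under 0.05. TG1 lay within the WT range for genes such as *Hk2* and *Aldoc*. Counts of *Slc2a13*, *Slc2a5*, *Slc5a5* and *Hk3* were low, and what this did to their precision was not tested. The cause of the differences between settings was not tested. The number of the described genes called up was 1 with all mice, 5 by DESeq2 (*Aldoc*, *Hk2*, *Slc5a1*, *Slc5a8*, *Slc5a9*; 5.44% of all genes), 7 by voom with quality weights (6.37%), 3 by limma on log2(FPKM + 1) (2.45%) and on log2(FPKM + 0.1) (2.9%), 0 with no filter on low counts (0.998%), where *Aldoc* had an adjusted p of 0.0505, and 0 to 5 when 1 mouse was left out. The number called down was 2 by DESeq2 (*Slc2a12*, *Slc2a3*), 2 with no filter (*Slc2a3*, *Slc5a11*; 1.19%), 0 by limma on both FPKM scales and 0 to 2 without 1 mouse. Over all genes, 367 were called up and 354 down, 925 and 658 by DESeq2, 1083 and 665 by voom, 228 down by limma on log2(FPKM + 1), 568 up by adjusted p alone, and 38 to 888 up and 27 to 666 down without 1 mouse. *Aldoc* kept a log2 fold change between 1.66 and 2.30 under all alternatives, and *Slc2a3* lost its call under voom and both limma scales (adjusted p 0.102 to 0.134). Leaving out WT3 and WT4 together was chosen after seeing the data, and *Aldoc* then had an adjusted p of 0.093 in edgeR.

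Without 1 mouse, the share difference of HSD17B1TG against WT lay between -32.3 and -21.1 percentage points for *Hk1*, 22.6 and 35 for *Hk2*, -5.55 and 5.07 for *Pdk4* and -2.61 and 0.157 for *Pfkp*, and on raw counts that of *Pdk4* was 0.156. The log2 fold changes given next turned sign, and all but that of *Pfkfb3* (-0.76 with all mice) were near 0. Without 1 mouse they ranged from -1.28 to 0.099 for the second *Aldoa* entry, -0.40 to 0.072 for *Eno2*, -0.033 to 0.13 for *Gpi1*, -0.12 to 0.18 for *Gys1*, -0.38 to 0.15 for *Pfkm*, -0.13 to 0.23 for *Pfkp*, -0.16 to 0.11 for *Pgam1*, -0.14 to 0.086 for *Pgm2*, -0.39 to 0.34 for *Pygl*, -0.21 to 0.016 for *Slc2a8*, -0.13 to 0.30 for *Slc2a9* and -0.54 to 0.0025 for *Slc5a5*. Without both WT3 and WT4 they were 0.039 for *Pfkfb3* and 0.13 for *Pkm*. With at least 1 CPM in 5 mice they were -0.012 for *Pfkm*, -0.011 for *Pgam1* and -0.0017 for *Pgm2*. By limma on log2(FPKM + 0.1) they were -0.091 for *Pfkm*, -0.0029 for *Pgam1*, -0.055 for *Pygl* and -0.013 for *Slc2a9*. By limma on log2(FPKM + 1) they were -0.078 for *Pfkm*, -0.0026 for *Pgam1* and -0.019 for *Pygl*. With no filter they were -0.015 for *Gys1*, -0.022 for *Pfkm*, -0.027 for *Pgam1* and -0.024 for *Pgm2*. With upper quartile scaling in edgeR they were -0.032 for *Gpi1*, -0.051 for *Gys1*, -0.063 for *Pfkm*, -0.0078 for *Pfkp*, -0.070 for *Pgam1* and -0.061 for *Pgm2*. By voom they were -0.023 for *Gpi1*, -0.19 for *Pfkm*, -0.047 for *Pgm2* and -0.18 for *Slc2a9*. The difference of *Pkm* in log2(FPKM + 1) lay between -0.15 and 0.012 without 1 mouse and was 0.12 without both.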

Other observations

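Genes that govern glucose use outside the enzymes were read in the same edgeR fit. Of 29 such regulators, *Esrra* was called up and *Myc* down. Over all genes tested 2.16% were called up and 2.08% down, so 1 and 1 of 29 is close to the rate of any gene. *Esrra*, the gene of an orphan nuclear receptor of energy metabolism, had 27.7, 39.8, 35.7, 30.6 and 51.9 FPKM in TG1 to TG5 and 18.4, 13.4, 13.4, 22.6 and 12.3 in WT1 to WT5. Every HSD17B1TG mouse lay above every WT mouse, WT4 included. Its log2 fold change was 1.21 (SE 0.22, adjusted p = 0.0219 in edgeR). *Myc*, a transcription factor that drives growth and many glycolytic genes, had 14.9, 10.98, 14.4, 14.0 and 15.6 FPKM in TG1 to TG5 and 27.4, 29.7, 53.7, 11.7 and 42.03 in WT1 to WT5. WT4 was again among the HSD17B1TG values. *Myc* fell by 1.25 in log2 fold change (SE 0.33, adjusted p = 0.0498 in edgeR).

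*Egln1*, a prolyl hydroxylase that marks hypoxia-inducible factors for decay, lay at 37.9 to 59.7 FPKM in HSD17B1TG and at 19.8 to 33.0 in WT (log2 fold change 0.84, adjusted p = 0.0328 in edgeR), below the fold change threshold. *Hif1a* itself had a log2 fold change of -0.17 (adjusted p = 0.813 in edgeR). Of 19 hypoxia response genes outside glycolysis that were tested none was called in this fit. Of these, 12 had a log2 fold change above 0, against 50.2% of all genes. The smallest adjusted p was 0.0366 for *Kdm3a*, a histone demethylase, with a log2 fold change of 0.73. The largest log2 fold change of the list was that of *Ankrd37*, at 2.40 (adjusted p = 0.0832 in edgeR), and *Car9*, a carbonic anhydrase, had 1.16 (adjusted p = 0.149 in edgeR). *Egln3*, a relative of *Egln1* among the regulators, had 2.30 (adjusted p = 0.0825 in edgeR). *Vegfa*, the angiogenic factor induced by hypoxia and by estrogen, had 51.6 ± 19.9 FPKM in WT and 25.7 ± 12.6 in HSD17B1TG (log2 fold change -1.01, adjusted p = 0.108 in edgeR).

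Among the other cell type markers, neutrophil markers summed to 10.3 to 17.7 FPKM in HSD17B1TG and 3.39 to 6.32 in WT. Of the 5 tested, 4 had a log2 fold change above 0, and the median was 1.72. The only 1 called was *Il1r2*, in the downward direction. Of the 11 neutrophil markers in the data, 7 were at 0 in some mouse. Adipocyte markers summed to 36.2 to 184 FPKM in HSD17B1TG, with the 184 in TG4, and 16.4 to 47.0 in WT.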
